A study of Mus musculus with 4 samples.

Results

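Connective tissue growth factor (Ccn2, also named Ctgf), thrombospondin 1 (Thbs1), tissue factor (F3), amphiregulin (Areg), the ecto-5'-nucleotidase CD73 (Nt5e) and the guanine nucleotide exchange factor Dock5 are known targets of the transcriptional coactivator YAP. They were taken by symbol from a deposited differential expression table of the mouse pyloric stomach, and all 6 were found among its 2701 genes. Lats1/2 KO denotes mice with the alleles Lats1fl/fl, Lats2fl/fl and Lgr5-CreER (2 libraries, titled Lats1/2iΔLgr5 by the submitters), and WT denotes mice with the same floxed alleles of both genes and no CreER (2 libraries). All mice were C57BL/6, all had received tamoxifen, and tissue was taken 8 weeks after the injection; no source used here gives their age or sex. The Cre is driven by Lgr5, a gene of gland-base stem cells, so the floxed genes can be lost in those cells and passed on to their progeny, while other cells of the section keep them. The labels name pyloric epithelium, but RNA came from whole 10 µm cryosections of the stomach wall, read from both ends at 75 bp after selection of poly(A) RNA.

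LATS1 and LATS2 are the kinases at the end of the Hippo pathway. They phosphorylate YAP and TAZ, which are then held in the cytoplasm or degraded; when the kinases are absent, YAP and TAZ enter the nucleus and bind DNA through TEAD factors, often beside AP-1. Their best known targets include secreted and cell-surface proteins that act on matrix, clotting, growth factor receptors and neighbouring cells, and in the gut epithelium the pathway is known for its part in regeneration and overgrowth. Of the 6 genes, 5 encode secreted or membrane-anchored proteins. Dock5 is a cytoplasmic activator of the small GTPase Rac, so it is not a secreted or surface protein.

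The table holds only genes with an adjusted p of 0.05 or less in the authors' DESeq2 test, 20.6% of an inferred 13142 tested genes (8.81% higher and 11.7% lower in Lats1/2 KO). Each of the 6 therefore had passed a test before it could be read here, and that they passed is no result. What can be described is the direction, the size and the spread between libraries. Listed genes held 13413629 and 14225132 counts in the Lats1/2 KO libraries and 14315314 and 17689207 in the WT libraries. Levels below are counts divided by the authors' size factors, which were 1.10 and 1.28 for Lats1/2 KO 1 and 2 and 0.792 and 0.907 for WT 1 and 2. Lats1, the deleted gene that is listed, had 942.5 and 1129 normalized counts in Lats1/2 KO, compared with 2152 and 1974 in WT. All 5 surface mucous cell markers of the gastric epithelium were listed, Gkn1, Gkn2, Tff1, Muc5ac and Capn9, and each was lower in Lats1/2 KO on the authors' scale. Their summed levels, 2334020 and 1902580 in Lats1/2 KO and 4335380 and 4587950 in WT, consist mostly of Gkn1 and Gkn2. With TMM scaling Muc5ac was not called (edgeR adjusted p = 0.196), its raw counts overlapped, and with the sum of listed counts 1 of the 5, Capn9, was still called. That sum includes the 5 genes themselves.

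Ccn2, Thbs1 and F3 rose in the Lats1/2 KO pylorus and Areg, Nt5e and Dock5 fell. Ccn2 rose 5.07-fold, Thbs1 3.14-fold and F3 2.08-fold, while mean WT levels were 2.63 times those of Lats1/2 KO for Areg, 1.91 times for Nt5e and 1.61 times for Dock5. For a target that YAP activates, loss of LATS predicts a rise, so Areg, Nt5e and Dock5 went against that direction. On the authors' scale, the libraries of both groups do not overlap for any of the 6, which is also so for 99.9% of all listed genes (42.9% higher and 57.1% lower in Lats1/2 KO). The falls of Nt5e and Dock5 were not called under other scalings, all of them drawn from called genes alone. Dock5 had no fall when libraries were scaled to their sum of listed counts. When Lats1/2 KO 2 was left out, edgeR called none of the 6 (adjusted p from 0.0702 to 0.0987; 5 of the 6 had an unadjusted p under 0.05) and 5 genes in the whole table. The authors' deposited table gives shrunken log2 fold changes of 1.56 for Thbs1, 0.94 for F3, -1.27 for Areg, -0.86 for Nt5e and -0.65 for Dock5.

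**Figure D1:**
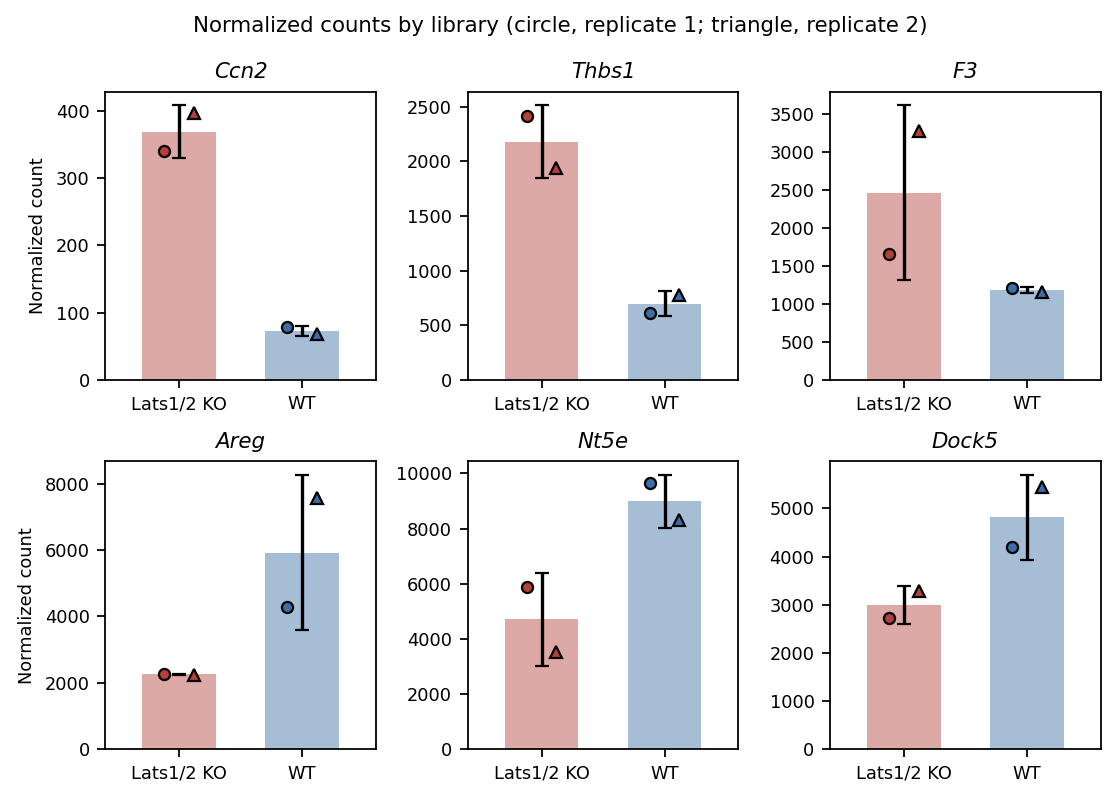
Normalized counts (counts divided by the authors' size factors) of the 6 genes, with Lats1/2 KO left of WT; bars are means, error bars SD over 2 libraries, circles replicate 1 and triangles replicate 2. Ccn2, Thbs1 and F3 are higher in both Lats1/2 KO libraries and Areg, Nt5e and Dock5 lower, with the widest replicate gaps for F3 and Nt5e in Lats1/2 KO and for Areg in WT.

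Ccn2, Thbs1 and Dock5 had no entry under their symbols in the RefSeq promoter set and could not be searched. Promoter windows of F3, Areg and Nt5e (250 bases before to 50 after the RefSeq start, GRCm38.p6, plus strand) are shown. They were searched on both strands for the TEAD core GGAATG, the AP-1 site TGANTCA, the cAMP response element TGACGTCA and the TATA box TATAAA, and matches are in capitals. The windows lie at chr3:121723287-121723586 for F3, chr5:91139349-91139648 for Areg and chr9:88327359-88327658 for Nt5e, the last lying inside the gene as the deposited table bounds it.
F3: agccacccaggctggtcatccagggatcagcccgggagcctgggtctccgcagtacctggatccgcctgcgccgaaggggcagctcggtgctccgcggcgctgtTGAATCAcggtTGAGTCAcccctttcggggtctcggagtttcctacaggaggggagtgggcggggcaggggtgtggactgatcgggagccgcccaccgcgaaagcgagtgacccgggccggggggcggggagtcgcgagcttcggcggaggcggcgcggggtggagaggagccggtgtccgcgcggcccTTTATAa
Areg: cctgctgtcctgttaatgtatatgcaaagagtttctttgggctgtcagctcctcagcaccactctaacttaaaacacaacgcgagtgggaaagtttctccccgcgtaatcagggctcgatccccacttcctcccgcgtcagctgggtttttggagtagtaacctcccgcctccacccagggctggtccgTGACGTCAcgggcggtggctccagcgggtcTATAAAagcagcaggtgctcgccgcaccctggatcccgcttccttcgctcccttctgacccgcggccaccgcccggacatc
Nt5e: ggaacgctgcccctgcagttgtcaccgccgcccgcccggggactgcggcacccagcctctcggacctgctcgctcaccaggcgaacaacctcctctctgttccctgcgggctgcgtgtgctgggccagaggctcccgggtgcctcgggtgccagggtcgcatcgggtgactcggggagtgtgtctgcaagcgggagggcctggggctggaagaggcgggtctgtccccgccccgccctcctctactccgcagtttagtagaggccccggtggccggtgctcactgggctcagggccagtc

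The F3 window held 2 AP-1 matches, whose first bases lie at -146 and -135 from the start, and a TATA box letter match on the minus strand after the start. The Areg window held a cAMP response element at -61 and a TATA box at -31. Nt5e held no match to any of the 4 motifs, and its window had a GC content of 71.0%, against 70.3% for F3 and 59.3% for Areg. The TEAD core was in none of these 3 windows and in 14.7% of all 32851 windows in the RefSeq set. AP-1 matches occurred in 7.81%, cAMP response elements in 1.79% and TATA boxes in 13.6% of them. A match is a run of letters, and YAP with TEAD is known to act largely from enhancers that such a window does not hold.

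Ccn2 (ENSMUSG00000019997, chromosome 10, 24595442 to 24598683, GRCm38, plus strand) encodes a secreted matrix-associated protein and is the most used reporter of YAP activity. It had 341.3 and 397.0 normalized counts in Lats1/2 KO 1 and 2, against 78.2 and 67.3 in WT 1 and 2. Both Lats1/2 KO libraries stood well above both WT libraries, and the ratio of one Lats1/2 KO library to one WT library ran from 4.36 to 5.90. The mean was 369.2 ± 39.4 in Lats1/2 KO and 72.8 ± 7.75 in WT (SD, n = 2 each). The log2 fold change was 2.34 ± 0.27 (SE), with an edgeR quasi-likelihood adjusted p of 0.0117 over all listed genes, a threshold that 99.9% of listed genes passed (42.9% higher and 57.1% lower). In the authors' deposited table its shrunken log2 fold change is 2.11 with an adjusted p of 1.21e-10. Raw counts alone, 377 and 508 in Lats1/2 KO, compared with 62 and 61 in WT, show the same order. Exons of an antisense transcript, Gm15270, cover 23.2% of the Ccn2 exon bases. Since the strand setting of the counting is not given, how reads over these shared bases were counted is not known. For Thbs1 the share covered by the antisense Gm29233 is 3.43%.

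Thbs1 (ENSMUSG00000040152, chromosome 2, 118111876 to 118127133, plus strand) encodes a matricellular glycoprotein that binds CD36 and CD47, can activate latent TGF-beta and inhibits blood vessel growth. Its normalized counts were 2415 and 1941 in the Lats1/2 KO libraries, against 613.3 and 775.4 in the WT libraries. Again both Lats1/2 KO libraries lay above both WT libraries, here with Lats1/2 KO 1 the higher of its pair. The means were 2178 ± 335 in Lats1/2 KO and 694.3 ± 115 in WT (SD, n = 2 each), a log2 fold change of 1.65 ± 0.20 (SE; edgeR adjusted p = 0.0117). With any single library left out, the log2 fold change was between 2.23 and 2.45 for Ccn2 and between 1.48 and 1.83 for Thbs1. Thbs1 is also made by fibroblasts and platelets. Of 8 fibroblast markers, Col3a1, Col1a2 and Mmp2 were listed and lower on the authors' scale, with a sum of 7414 and 6332 in Lats1/2 KO, compared with 10068 and 13681 in WT (Mmp2 had a log2 fold change of -1.04, or -0.56 without WT 2), and none of 5 platelet and megakaryocyte markers was listed. None of the 3 fibroblast genes was called with TMM scaling (edgeR adjusted p from 0.0748 to 0.0844). None of the 3 was at 0, and their part in the Thbs1 result was not tested. In bulk RNA, fewer cells of a type and less RNA per cell cannot be told apart.

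F3 (ENSMUSG00000028128, chromosome 3, 121723537 to 121735048, plus strand) encodes tissue factor, the transmembrane receptor for clotting factor VII that starts coagulation. It had 1651 and 3277 normalized counts in Lats1/2 KO 1 and 2, against 1211 and 1154 in WT 1 and 2. The WT libraries were close to each other, and Lats1/2 KO 2 was 1.99 times Lats1/2 KO 1. The means were 2464 ± 1150 in Lats1/2 KO and 1183 ± 40.9 in WT (SD, n = 2 each), with a log2 fold change of 1.06 ± 0.33 (SE; edgeR adjusted p = 0.0235). Without Lats1/2 KO 2 the log2 fold change was 0.48 (edgeR adjusted p = 0.0987), and without Lats1/2 KO 1 it was 1.47. Raw counts did not overlap either, at 1823 and 4193 in Lats1/2 KO, compared with 960 and 1046 in WT.

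Areg (ENSMUSG00000029378, chromosome 5, 91139599 to 91148432, plus strand) encodes a membrane-anchored ligand of the EGF receptor that is released by shedding. Its normalized counts were 2266 and 2238 in Lats1/2 KO and 4272 and 7575 in WT. The Lats1/2 KO libraries were almost equal, and the WT libraries differed 1.77-fold, with the lower of them still above both Lats1/2 KO libraries. The means were 2252 ± 20.2 in Lats1/2 KO and 5923 ± 2336 in WT (SD, n = 2 each), a log2 fold change of -1.40 ± 0.28 (SE; edgeR adjusted p = 0.0127). Without WT 2 it was -0.92, and without WT 1 it was -1.75. WT 2 also stood apart in interferon-stimulated genes: the 18 listed of 20 summed to 4293 and 3585 normalized counts in Lats1/2 KO 1 and 2 and to 12294 and 33515 in WT 1 and 2. The listed share was 90%, beside 20.6% of all inferred tested genes. All 18 were lower in Lats1/2 KO on the authors' scale, as were 57.1% of all listed genes, and 15 were called with TMM scaling. Their part in the Areg difference was not tested.

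Nt5e (ENSMUSG00000032420, chromosome 9, 88327197 to 88372092, plus strand) encodes CD73, a lipid-anchored surface enzyme that turns extracellular AMP into adenosine. It had 5898 and 3509 normalized counts in Lats1/2 KO and 9659 and 8304 in WT. Both Lats1/2 KO libraries were below both WT libraries, and Lats1/2 KO 1 was 1.68 times Lats1/2 KO 2. The means were 4703 ± 1690 in Lats1/2 KO and 8981 ± 958 in WT (SD, n = 2 each), a log2 fold change of -0.93 ± 0.26 (SE; edgeR adjusted p = 0.0198). It was -0.61 without Lats1/2 KO 2 (edgeR adjusted p = 0.0731). Raw counts were 6514 and 4489 in Lats1/2 KO and 7654 and 7529 in WT.

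Dock5 (ENSMUSG00000044447, chromosome 14, 67751928 to 67933572, minus strand) encodes an exchange factor that loads Rac with GTP at sites of adhesion and spreading. Its normalized counts were 2715 and 3275 in Lats1/2 KO and 4193 and 5435 in WT. The groups are separate on this scale, with means of 2995 ± 396 in Lats1/2 KO and 4814 ± 878 in WT (SD, n = 2 each) and a log2 fold change of -0.68 ± 0.18 (SE; edgeR adjusted p = 0.0178). Raw counts overlapped, at 2999 and 4190 in Lats1/2 KO and 3323 and 4928 in WT, so the separation came with the size factors. It is the only one of the 6 whose raw counts overlapped; over the whole table, raw counts did not overlap in 69.1% of genes, 42.9% higher and 26.2% lower in Lats1/2 KO. Without Lats1/2 KO 1 the log2 fold change was -0.56 (edgeR adjusted p = 0.0768), and without WT 2 it was -0.49.

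The authors' size factors and the sum of listed counts order the groups oppositely, so the choice of scaling moves every gene. TMM scaling of the listed genes raised the median log2 fold change by 0.36 against the authors' factors, DESeq2 factors from the listed genes by 0.41 and scaling to the sum of listed counts by 0.69. Under these, Ccn2 was at 2.70, 2.75 and 3.04, Thbs1 at 2.01, 2.06 and 2.34 and F3 at 1.42, 1.47 and 1.77. Areg remained lower at -1.02, -0.98 and -0.69, each with an edgeR adjusted p under the threshold. Nt5e was at -0.58, -0.54 and -0.26, with edgeR adjusted p of 0.0966, 0.105 and 0.395, and Dock5 at -0.32, -0.27 and 0.021, with 0.133, 0.197 and 0.944. TMM scaling and DESeq2 factors assume that most genes do not change, which a table of called genes does not meet. Scaling to the sum of listed counts assumes that this sum is equal between libraries, which was not tested. Each is drawn from called genes alone, so calls and signs lost under them do not decide which scaling is right.

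**Figure D2:**
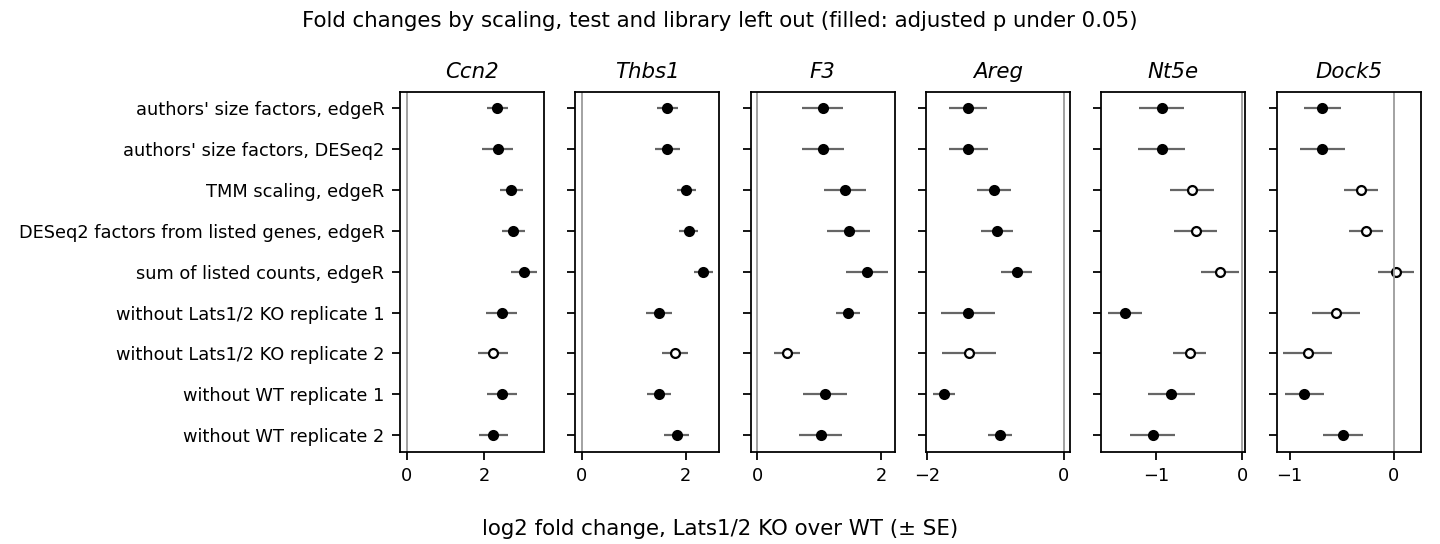
Log2 fold change (Lats1/2 KO over WT, ± SE) of each gene under the authors' size factors, 3 other scalings and with each library left out; filled points have an adjusted p under 0.05. Ccn2, Thbs1 and F3 stay right of 0 and Areg and Nt5e left of it throughout, F3 is smallest without Lats1/2 KO replicate 2, and Dock5 reaches 0.021 when scaled to the sum of listed counts.

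Ratios between genes within one library do not depend on its size factor, and describe how far the genes moved against each other. Per kilobase of exon, Ccn2 was 0.064 and 0.075 of Areg in Lats1/2 KO 1 and 2, against 0.0078 and 0.0038 in WT 1 and 2, a 12.8-fold higher ratio in Lats1/2 KO by geometric means. Thbs1 relative to Nt5e was at 0.580 and 0.784 in Lats1/2 KO and 0.090 and 0.132 in WT. F3 relative to Dock5 was at 2.93 and 4.82 in Lats1/2 KO and 1.39 and 1.02 in WT. Since the first gene of each of these pairs was higher and the second lower in every Lats1/2 KO library, the ratios had to separate the groups, and their separation adds no support. Among the falling genes, Areg relative to Nt5e was at 2.72 and 4.52 in Lats1/2 KO and 3.13 and 6.46 in WT, and there the groups overlapped. Such ratios show unequal change and not which gene of a pair changed.

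Levels per exon length gave the order in which the 6 transcripts stood. In Lats1/2 KO the means were 1853 ± 16.6 normalized counts per kb for Areg, 975.0 ± 455 for F3, 546.8 ± 196 for Nt5e, 358.7 ± 55.1 for Thbs1, 246.1 ± 32.5 for Dock5 and 129.0 ± 13.8 for Ccn2 (SD, n = 2). In WT they were 4875 ± 1922 for Areg, 1044 ± 111 for Nt5e, 468.0 ± 16.2 for F3, 395.6 ± 72.2 for Dock5, 114.3 ± 18.9 for Thbs1 and 25.4 ± 2.71 for Ccn2. Areg led and Ccn2 was last in both groups. In Lats1/2 KO, F3 and Nt5e were neighbours whose libraries overlapped, at 653.2 and 1297 for F3 and 685.6 and 407.9 for Nt5e. Nt5e and Thbs1 were close as well, since the lower Nt5e library was at 407.9 and the higher Thbs1 library at 397.6. In WT the libraries of F3, 479.4 and 456.5, and of Dock5, 344.6 and 446.6, were neighbours: the lower F3 library stood only just above the higher Dock5 library. F3 was below Nt5e in WT and above it by mean in Lats1/2 KO, and Thbs1 was below Dock5 in WT and above it in Lats1/2 KO.

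**Figure D3:**
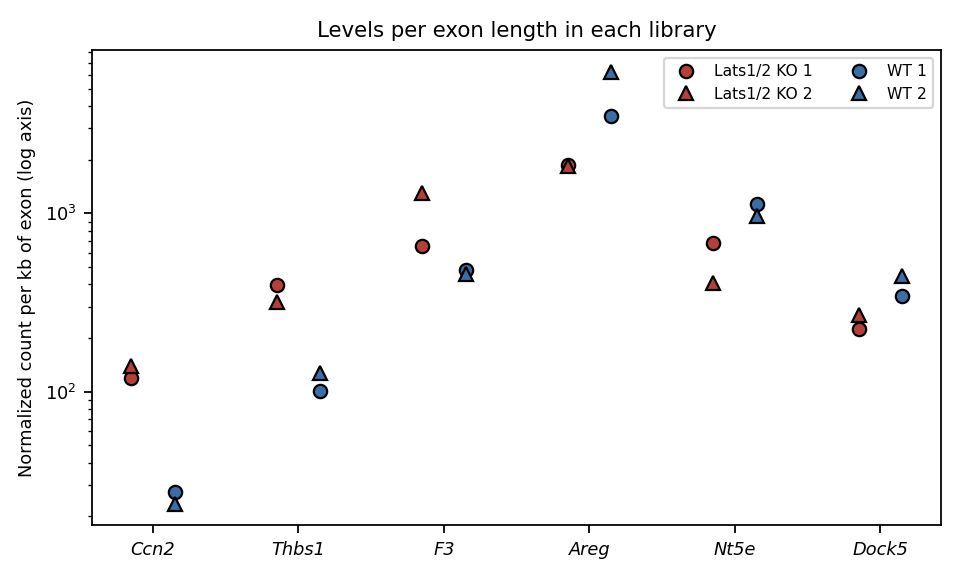
Normalized count per kb of exon (log axis) in every library, Lats1/2 KO left of WT; circles are replicate 1 and triangles replicate 2. Areg is highest and Ccn2 lowest in both groups, and the distance between them is smaller in Lats1/2 KO, at means of 1853 and 129.0, than in WT, at 4875 and 25.4.

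On the authors' scale, other known YAP and TAZ targets also lay on both sides. Of 34 genes on a tumour-derived YAP and TAZ signature of 22 genes and a list of 12 further targets, 13 were listed, 8 higher and 5 lower, and of the 28 that are not among the 6, 7 were listed, 5 higher and 2 lower. These 7 are 25% of the 28, near the 20.6% listed among an inferred 13142 tested genes. The median log2 fold change was 1.02 for the 13, which include the 6, and also 1.02 for the 7 outside them. That of all listed genes was -0.50, and 42.9% of these were higher. Since only called genes are listed, such a median follows mainly the split of directions. Ajuba, a LIM protein that binds LATS kinases, had 403.8 and 373.6 normalized counts in Lats1/2 KO, compared with 68.1 and 55.1 in WT. Ptpn14 and Amotl2, which both encode proteins that restrain YAP, had log2 fold changes of 1.65 ± 0.29 and 1.02 ± 0.25 (SE), Edn1, the endothelin 1 gene, 1.57 ± 0.45, and Birc5, which encodes the mitotic protein survivin, 0.78 ± 0.26, which was 0.48 without WT 1. The 2 that were lower were Gadd45a, a stress-response gene, at -1.36 ± 0.34, and Cdc42ep3, an effector of the GTPase CDC42, at -1.37 ± 0.37. Gadd45a was at 292.5 and 162.6 normalized counts in Lats1/2 KO and 514.9 and 651.8 in WT, and Cdc42ep3 at 463.6 and 222.8 in Lats1/2 KO and 820.3 and 957.3 in WT, so that both were lowest in Lats1/2 KO 2. With TMM scaling, directions in both lists were the same, and with the sum of listed counts Dock5 alone changed sign. The calls of both lower genes outside the 6 depended on the scaling: Cdc42ep3 had an edgeR adjusted p of 0.0534 with TMM, 0.0544 with DESeq2 factors and 0.136 with the sum of listed counts, and Gadd45a had 0.0441, 0.0466 and 0.136. Ajuba, Ptpn14, Amotl2, Edn1 and Birc5 were called under each of these. The remaining 21 of the 34, Ccn1, Ankrd1, Axl and Lats2 among them, were looked up and not listed. Absence can mean an adjusted p above 0.05 or no test, so their levels are not known here. Lats2 is also a floxed gene of this design, so its level could not be read as that of a target alone.

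Counts of listed genes among relatives, receptors and partners, here and below, stand beside 20.6% listed among an inferred 13142 tested genes. No share was tested against it. Of 6 CCN genes, Ccn2 and Ccn3 were listed. Ccn3 had 66.1 and 218.1 normalized counts in Lats1/2 KO, compared with 46.7 and 27.6 in WT, and its log2 fold change of 1.94 became 0.83 without Lats1/2 KO 2. No other gene of the 5 thrombospondins was listed. Of 14 receptor genes for CCN2 and thrombospondin 1, 4 were listed, 1 higher and 3 lower. Cd36, which encodes a scavenger receptor, was at 134.0 and 606.5 in Lats1/2 KO, compared with 93.4 and 81.6 in WT, and without Lats1/2 KO 2 its log2 fold change was 0.61 in place of 2.08. The endocytic receptor gene Lrp1 and the integrin genes Itgav and Itga6 had log2 fold changes of -0.87 (-0.41 without WT 2), -0.50 and -0.42 on the authors' scale, none called with TMM scaling, and with the sum of listed counts both integrins were higher, at 0.20 and 0.28. Of 15 other tissue factor pathway genes, Serpinc1, the antithrombin gene, was listed, at 31.7 and 20.3 normalized counts in Lats1/2 KO, compared with 126.2 and 71.7 in WT.

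Of the genes around Areg, 2 of 11 EGF family ligands were listed, both lower on the authors' scale, and 4 of 10 ErbB receptors and sheddases, 1 higher and 3 lower. The ligand genes were Areg and Tgfa, and Tgfa had 1680 and 1994 normalized counts in Lats1/2 KO, compared with 2668 and 2704 in WT. Egfr, the receptor for both, had 3344 and 2772 in Lats1/2 KO, compared with 4928 and 6181 in WT, a log2 fold change of -0.86 ± 0.17 (SE; edgeR adjusted p = 0.0128). Erbb3 and the shedding protease gene Adam10 had log2 fold changes of -0.58 and -0.65, while Lrig1, which encodes a protein that lowers EGF receptor levels, rose by 0.90 ± 0.30, or 1.39 without WT 1 and 0.53 without WT 2. With the sum of listed counts Egfr was at -0.17, and Tgfa, Erbb3 and Adam10 were above 0, at 0.15, 0.11 and 0.035. Of 14 feedback genes of EGF receptor and ERK signalling, 5 were listed and split: the ETS factor genes Etv5 and Etv4 rose, Etv4 by 1.98 ± 0.43, and Phlda1, Ier3 and Spry2 had log2 fold changes of -1.15, -1.04 and -0.87 (Spry2 -0.49 without WT 2). The 2 higher and 3 lower genes had the same directions under each of the 4 scalings, but only Etv5 and Etv4 were called under all of them. Spry2 was not called with TMM (edgeR adjusted p = 0.139) or DESeq2 factors (0.182), Ier3 not with DESeq2 factors (0.0582), and none of the 3 with the sum of listed counts (Phlda1 0.163, Ier3 0.321 and Spry2 0.687). Etv5 was at 990.5 and 1403 normalized counts in Lats1/2 KO, compared with 374.8 and 184.2 in WT.

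The adenosine pathway around Nt5e split as well, with 6 of 18 genes listed, 3 higher and 3 lower, under each of the 4 scalings. Entpd8, an ectonucleotidase that acts before CD73, and the adenosine receptor gene Adora1 were lower with Nt5e, with log2 fold changes of -0.79 ± 0.23 and -0.87 ± 0.27 (SE), both short of the threshold with TMM scaling (edgeR adjusted p of 0.125 and 0.141). The nucleoside transporter genes Slc29a1 and Slc29a2 and the adenosine kinase gene Adk, which clear adenosine, rose. Slc29a1 had 321.4 and 348.6 normalized counts in Lats1/2 KO, compared with 179.2 and 134.6 in WT, Slc29a2 59.8 and 94.6 in Lats1/2 KO and 24.0 and 21.0 in WT, and Adk 656.4 and 776.1 in Lats1/2 KO and 441.7 and 321.0 in WT.

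Of 11 DOCK genes, Dock1 and Dock5 were lower on the authors' scale and Dock11 rose, by a log2 fold change of 0.61 ± 0.18 (SE). Dock1, an exchange factor for Rac like Dock5, had 3450 and 3822 normalized counts in Lats1/2 KO, compared with 4933 and 5997 in WT, or -0.59 ± 0.15. Of 11 partners of DOCK proteins and Rac, Rac1, Crk and Pak2 had log2 fold changes from -0.55 to -0.50 and Rac3 rose by 1.03 ± 0.28. Dock1, Dock5, Rac1, Crk and Pak2 all missed the threshold with TMM scaling, and all were above 0 with the sum of listed counts. Both scalings are drawn from called genes alone and raise values by construction, so they do not decide a direction for this group.

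The genes of the table whose profiles over the 4 libraries were most like each of the 6 were found by the root mean square difference of centred log2 levels, among 2591 candidates. For Ccn2 they were Ctps, Scd2 and Zdhhc15, at differences of 0.13, 0.13 and 0.16. For Thbs1 they were Rccd1, Fancd2 and Fignl1, at 0.020, 0.024 and 0.053. For F3, Cirbp was nearest at 0.027, with 536.9 and 1066 normalized counts in Lats1/2 KO, compared with 376.1 and 368.4 in WT, followed by Efemp1 and Fgfbp1. For Areg they were Elp6, Slc25a34 and Abhd6, at 0.027, 0.060 and 0.067. For Nt5e they were Slc25a33, Tmem181a and Pik3cb, and for Dock5 Entpd7, Midn and Mid1ip1, the first at 0.019. With 4 libraries, small differences are easily found among this many genes. Among the 6 themselves the closest pair was Areg and Dock5 at 0.38, and Ccn2 and Areg were farthest apart at 1.87.

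**Figure D4:**
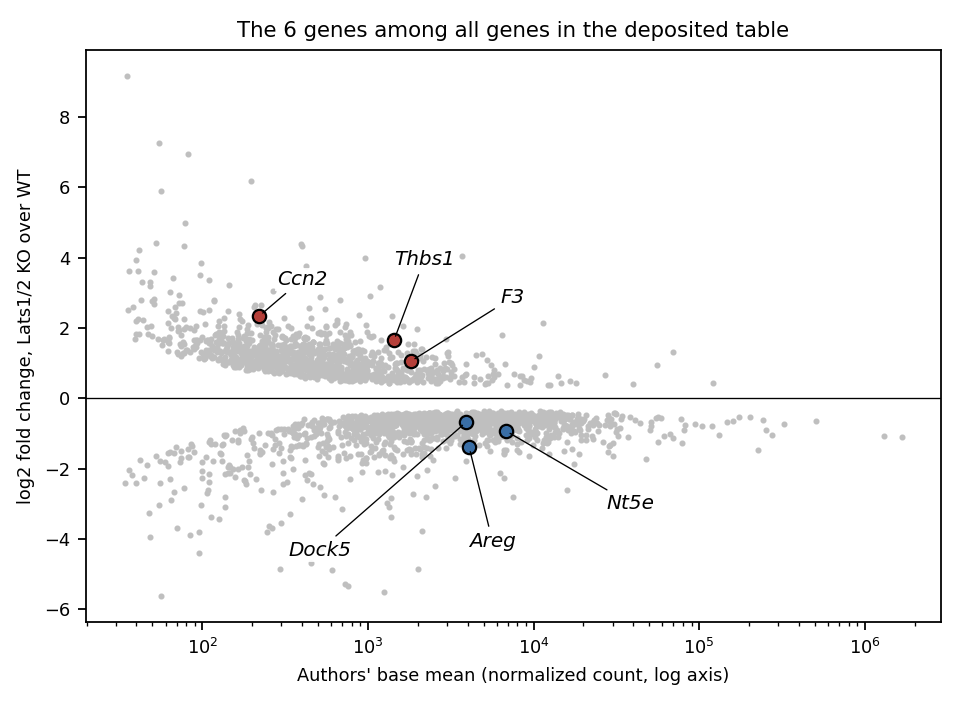
Log2 fold change (Lats1/2 KO over WT) against the authors' base mean (log axis) for all 2701 listed genes (grey), with Ccn2, Thbs1 and F3 in red and Areg, Nt5e and Dock5 in blue. The empty band around 0 reflects that only called genes are listed; Dock5 and Nt5e lie nearest to it among the 6 and Ccn2, the least abundant, farthest.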

How the data were processed

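RNA-seq read counts per gene were analysed for 4 libraries of mouse pyloric stomach, 2 Lats1/2 KO and 2 WT. The submitters' processing notes name the build GRCm38 with TopHat2 2.1.1 as well as HTSeq and DESeq2; no source used here gives settings, annotation or strand handling. Per the file headers, the deposited table gives whole-number counts, the authors' base mean (a signal, the average normalized count), a log2 fold change and its error, the Wald score, and raw and adjusted p-values. No header calls the log2 fold change shrunken. It is so named here because, for Ccn2, 2.11 was deposited against 2.34 in a refit with DESeq2. How many genes the authors tested was inferred from deposited p-values and adjusted p-values. Their size factors were recovered from base means and counts, with a largest deviation of 0.0119%. Symbols came from GENCODE M21 (2698 of 2701 matched); exon lengths are unions of its exons. Printed gene starts are the deposited ones plus 1, since 2214 lie 1 below GENCODE. Promoters are from RefSeq (GRCm38.p6), where F3, Areg and Nt5e matched.

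Counts were tested with edgeR 4.0.16 (quasi-likelihood, filterByExpr, genotype as the one factor, the authors' size factors, Benjamini-Hochberg at 0.05 over all listed genes) and, as an alternative, DESeq2 1.42.0. The procedure was tested on simulated data in which most genes did not change, unlike the listed genes. That run does not bear on the p-values given here. The SE is the absolute log2 fold change divided by the square root of F. Spread is estimated from genes chosen for a small p, so these p-values are not independent of the authors' selection. The labels do not say that libraries of a group are separate mice, and p-values measure only the spread between them. No library was a repeat deposit: chi-square per degree of freedom between libraries was 107.7 within Lats1/2 KO and 113.7 within WT. The members and gene lists were chosen with earlier results of these data known. Named are the 6, Lats1, all listed genes of target, family, ligand, receptor and enzyme lists, up to 4 of other lists, and the 3 nearest profiles of each gene at a base mean of at least 50 on log2(normalized count + 1).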

Additional observations from a re-analysis of the deposited data

How the results depend on the processing

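DESeq2's Wald test and the absence of a low-count filter changed no call or direction of the 6 genes or Lats1. TMM scaling and DESeq2 factors from the listed genes left Nt5e (-0.58 and -0.54) and Dock5 (-0.32 and -0.27) short of the threshold and called 495 and 432 genes lower in place of 1541, by construction, since all values shift up. Of calls, 42.9% were higher with the authors' factors, 70.0% with TMM and 72.8% with DESeq2 factors. Scaling to the sum of listed counts, chosen after seeing the data, gave 173 lower (87.0% higher), Dock5 at 0.021, Nt5e at -0.26 and Lats1 at -0.30, neither of Nt5e and Lats1 called. Leaving out 1 library in turn gave log2 fold changes of 2.23 to 2.45 for Ccn2, 1.48 to 1.83 for Thbs1, 0.48 to 1.47 for F3, -1.75 to -0.92 for Areg, -1.36 to -0.61 for Nt5e, -0.86 to -0.49 for Dock5 and -1.13 to -0.87 for Lats1, with 4 to 1038 genes called higher and 1 to 1416 lower. Without Lats1/2 KO replicate 2, edgeR's adjusted p-values were 0.0702 to 0.0987 for the 6 genes and Lats1, with 5 calls in the whole table; the cause was not tested. Without Lats1/2 KO replicate 1 only Dock5 of the 6 was lost, with 627 calls higher and 876 lower. The labels do not say that replicate numbers pair libraries; with a replicate block, 1084 genes were called higher and 1451 lower and no call of the 6 changed. Across genes, the log2 difference of WT 1 minus WT 2 correlated with that of Lats1/2 KO 1 minus Lats1/2 KO 2 at -0.19. The crossed pairing, added after seeing the data, called 1142 higher and 1518 lower. With 2 libraries a group, an SD rests on a single difference.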

Other observations

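Lists of genes that act beside thrombospondin 1 and tissue factor are also read beside the 20.6% listed among all inferred tested genes. Of 15 genes of TGF-beta ligands, receptors and feedback, 3 were listed. Tgfbr2, which encodes the type II receptor that binds the ligand, rose in Lats1/2 KO, with 2349 and 2762 normalized counts in Lats1/2 KO, compared with 1683 and 1374 in WT (log2 fold change 0.74 ± 0.17, SE; edgeR adjusted p = 0.0152). Skil, which encodes a nuclear repressor of the pathway, was at 2713 and 2246 in Lats1/2 KO, compared with 3648 and 3925 in WT, and its log2 fold change of -0.61 was 0.077 when scaled to the sum of listed counts. Smad7, which encodes an inhibitor of the receptor, was at 756.9 and 705.8 in Lats1/2 KO and 1027 and 1237 in WT, and its log2 fold change of -0.63 was 0.064 under that scaling. Neither Skil nor Smad7 was called with TMM scaling. Of 10 fibrinolysis genes, Serpine2, which encodes the protease inhibitor nexin 1, was listed, with 129.5 and 146.9 normalized counts in Lats1/2 KO, compared with 56.8 and 30.9 in WT (log2 fold change 1.66 ± 0.44, SE).

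Of the other marker lists, 4 of 6 epithelial genes (Cdh1, Cldn18, Krt8 and Krt19) were listed and lower on the authors' scale, and all 4 were above 0 when scaled to the sum of listed counts. Of 4 mast cell markers Kit was listed, at 265.3 and 199.3 normalized counts in Lats1/2 KO, compared with 88.3 and 68.4 in WT. Of 6 endothelial markers Kdr was listed, at 334.1 and 338.4 in Lats1/2 KO, compared with 461.9 and 698.2 in WT, or -0.79 on the log2 scale (-0.46 when WT 2 was left out). Of 8 myeloid markers Cd14, which encodes a receptor for bacterial lipopolysaccharide, was listed and rose, at 570.4 and 563.5 in Lats1/2 KO and 249.9 and 219.5 in WT (log2 fold change 1.27 ± 0.21, SE; edgeR adjusted p = 0.0117). It was also called with TMM, DESeq2 factors and the sum of listed counts (edgeR adjusted p of 0.00693, 0.00558 and 0.00159). Its part in the higher levels of Ccn2, Thbs1 and F3 was not tested. No smooth muscle, lymphoid or innate lymphoid marker was listed.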
